A study of Mus musculus with 12 samples.

Results

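The genes encoded by mitochondrial DNA were examined in mouse tongue tissue from an oral carcinogenesis experiment with gallic acid (GA), a plant phenolic acid. Members were the named rows whose symbol starts with mt-, a set that the annotation of the mitochondrial chromosome lists as 37 genes (13 protein genes, 2 rRNAs and 22 tRNAs). Of these, the 13 protein genes were found by symbol among 32498 named rows, and all 13 passed the filter on low values. No row carried the symbol of a mitochondrial rRNA or tRNA, and the 22965 rows without a name (41.4% of 55463) were not matched to genes, so these 24 members were not analysed here.

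Both groups were C57BL/6 mice, obtained at 5 weeks of age, that drank water with the carcinogen 4-nitroquinoline 1-oxide (4NQO) at 100 µg/mL for 16 weeks. From week 4 on, one group was gavaged with GA at 100 mg/kg 5 times per week and the other with the vehicle alone, a methyl cellulose and Tween-20 solution. Each group held 6 libraries of bulk tongue RNA, labelled as tumor and tumor-associated tissue, and there was no group without 4NQO. The labels number the libraries but give no animal identifiers, so p-values measure the spread between these libraries.

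Mitochondrial DNA is a small circle present in many copies per cell. Both of its strands are transcribed as long RNAs that are cut at the tRNAs lying between the genes, and the mRNAs code for core subunits of 4 respiratory chain complexes. Complex I receives mt-Nd1 to mt-Nd6 and mt-Nd4l, complex III receives mt-Cytb, complex IV receives mt-Co1 to mt-Co3, and complex V, the ATP synthase, receives mt-Atp6 and mt-Atp8. The nucleus encodes all other subunits and the proteins that copy, transcribe and translate mitochondrial DNA. Tongue holds skeletal muscle, which is rich in mitochondria, beneath a stratified keratinizing epithelium.

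The mitochondrial genes lie almost end to end, and several share bases with a neighbour or with a nuclear copy. These stretches are shown because reads that fall in them belong to more than one gene. Sequences are the plus strand of chromosome M in GRCm38 (mm10), read from the GENCODE release M21 transcripts.

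The mt-Atp8 gene (chrM:7766-7969, 204 bases) is given in full, with the 43 bases that it shares with the start of mt-Atp6 in capitals.
mt-Atp8: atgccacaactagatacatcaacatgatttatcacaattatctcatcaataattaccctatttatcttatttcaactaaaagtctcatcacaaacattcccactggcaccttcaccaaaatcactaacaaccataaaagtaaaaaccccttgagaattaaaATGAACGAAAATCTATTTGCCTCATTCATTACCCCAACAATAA

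The mt-Nd4l gene (chrM:9877-10173, 297 bases) is given with capitals for the 294 bases that also make up, letter for letter, the whole annotated transcript of Gm10222, an unprocessed pseudogene on the minus strand of chromosome 1 (chr1:24612407-24612700).
mt-Nd4l: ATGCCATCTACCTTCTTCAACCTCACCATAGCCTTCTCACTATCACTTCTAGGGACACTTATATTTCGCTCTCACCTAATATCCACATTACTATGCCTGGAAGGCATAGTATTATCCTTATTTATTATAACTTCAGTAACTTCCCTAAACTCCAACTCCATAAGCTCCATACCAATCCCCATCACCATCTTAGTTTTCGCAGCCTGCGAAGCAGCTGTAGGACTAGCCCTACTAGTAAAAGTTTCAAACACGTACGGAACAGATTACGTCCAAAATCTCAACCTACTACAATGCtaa

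At 2 further joints, capitals mark the bases that lie in both genes. The first runs from the end of mt-Nd4l into mt-Nd4 (chrM:10144-10196), which share 7 bases on the same strand. The second runs from the end of mt-Nd5 into mt-Nd6 (chrM:13536-13581), which share 14 bases and lie on opposite strands. The mt-Nd6 gene is the 1 of the 13 on the minus strand.
mt-Nd4l/mt-Nd4: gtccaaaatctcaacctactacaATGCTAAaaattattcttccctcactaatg
mt-Nd5/mt-Nd6: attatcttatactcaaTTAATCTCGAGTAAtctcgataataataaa

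Library totals, recovered from the deposited values as whole reads, were 18040152 to 21770340 with vehicle and 21237167 to 25192491 with GA. Y-linked genes had reads in vehicle libraries 1, 2, 3 and 4 and in GA library 1 alone of its group, and the labels give no sex. The gland lipase Lipf was above 100 FPKM in vehicle libraries 3 and 5 and in GA library 2. The deposited unit, FPKM, is a read count scaled by gene length and library total. Within a group, libraries correlated at Spearman coefficients of 0.889 to 0.971 with vehicle and 0.905 to 0.971 with GA.

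The 13 genes made up a large and variable part of every library. Their share of the FPKM sum over named rows had a median of 16.2% among vehicle libraries and 21.7% among GA libraries. In the vehicle group, library 1 was lowest at 8.47%, followed by library 5 at 10.8%, library 4 at 15.2%, library 6 at 17.3%, library 2 at 21.8% and library 3 at 26.2%. In the GA group, library 6 was lowest at 13.6%, followed by library 2 at 20.2%, library 3 at 21.6%, library 4 at 21.8%, library 1 at 25.7% and library 5 at 26.5%. The groups overlapped over most of their range, with 5 of 6 GA libraries above the vehicle median and 1 of 6 above every vehicle library. The mean share was 16.6% ± 6.65 (SD, n = 6) with vehicle and 21.6% ± 4.61 (SD, n = 6) with GA, a difference of 4.96 percentage points (standard error 3.30) that lies between the SDs of the groups. Since the share is a sum over the members, it is given without a test.

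Counted in reads, the share was lower because FPKM divides by gene length. Of the reads on rows with a known exon length, the 13 genes took 3.64% to 12.7% with vehicle and 5.47% to 12.8% with GA, with means of 7.46% ± 3.47 and 9.98% ± 2.57 (SD, n = 6 each). They held 673195 to 2488669 reads per library, so that counting error is far below the differences between libraries. In bulk tissue, fewer mitochondria-rich cells and less mitochondrial RNA per cell cannot be told apart.

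The share varied together with the level of skeletal muscle genes. The summed level of 12 muscle markers (Acta1, Ckm, Myh4 and others, of which 11 passed the filter on low values) ranged from 1416 to 12233 FPKM with vehicle and from 2473 to 10080.2 FPKM with GA. The lowest sum was that of vehicle library 1, which also had the lowest mitochondrial share, and GA library 6 was lowest of its group on both measures. The highest sum was that of vehicle library 3, which had the highest share of its group. In the GA group the highest sum was that of library 2, whose share was the second lowest of the group. None of the muscle markers was at 0 in all libraries. The 10 markers of oral epithelium summed to 16597 to 39519 FPKM with vehicle and 14848 to 29853 FPKM with GA, and the 8 neutrophil markers to 1008 to 2608 FPKM and 213 to 1785 FPKM. Their part in the difference of the share was not tested.

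**Figure D1:**
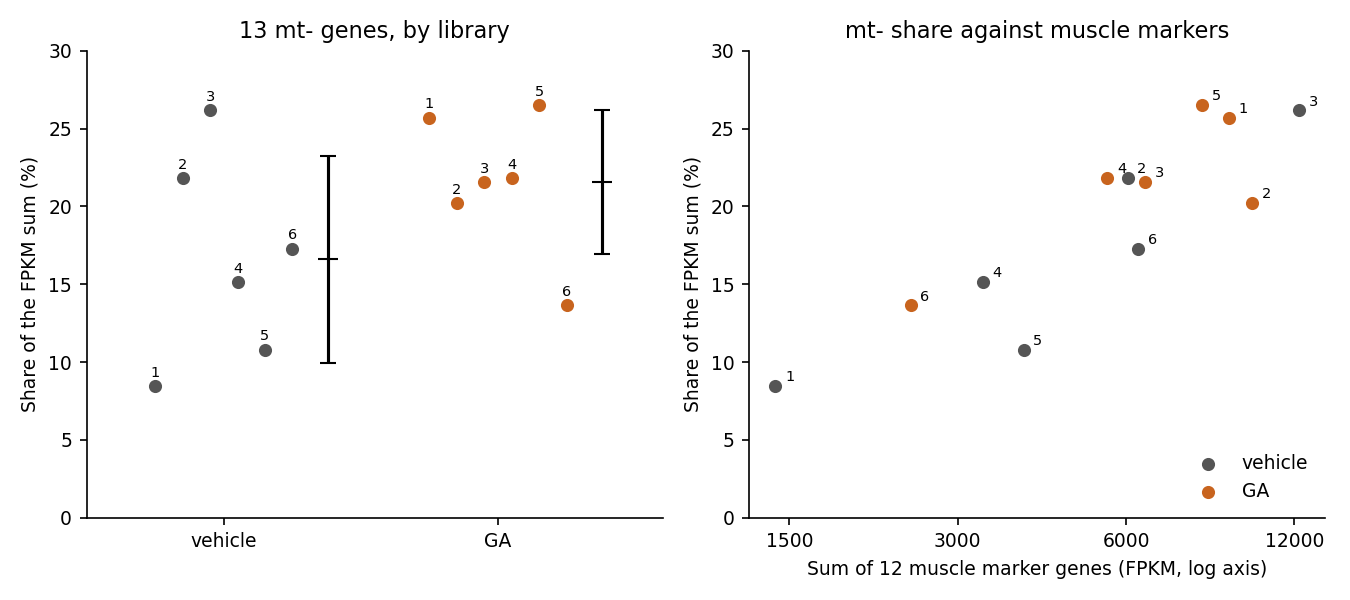
Left, share of the FPKM sum over named rows taken by the 13 mt- genes in each library (numbered points), with the group mean and SD as bars. Right, the same share against the summed FPKM of 12 skeletal muscle markers on a log axis. The shares run from 8.47% (vehicle library 1, muscle sum 1416 FPKM) to 26.5% (GA library 5), and the 2 groups overlap.

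Set in order by reads divided by the annotated gene length and the library total, on the FPKM scale, mt-Co1 was highest with a median of 21245 over the 12 libraries. It codes for the catalytic subunit of complex IV and took a median of 36.9% of mitochondrial mRNA reads. Here and below, these are the reads on the 13 members as deposited. Next came mt-Cytb at 8611, mt-Atp6 at 8394, mt-Co2 at 7639, mt-Nd1 at 7152, mt-Co3 at 6489, mt-Nd4 at 5428, mt-Nd2 at 4488, mt-Nd5 at 3555, mt-Nd6 at 3353, mt-Nd4l at 1873 and mt-Nd3 at 1142. The last place belonged to mt-Atp8 at 71.9, which was 0.342% of mt-Co1 per length in the median library. This gene lies on a shared mRNA with mt-Atp6, and 43 of its 204 bases belong to both genes. Its place in the order therefore describes counted reads and not the level of that mRNA.

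Most steps in this order held in each library. In 12 of 12 libraries mt-Co1 stood above mt-Cytb, mt-Atp6 above mt-Co2, mt-Nd1 above mt-Co3, mt-Nd4 above mt-Nd2, mt-Nd2 above mt-Nd5, and mt-Nd6 above mt-Nd4l, mt-Nd3 and mt-Atp8 in turn. In 11 of 12 libraries mt-Co3 was above mt-Nd4 and mt-Nd5 above mt-Nd6. Neighbours that could not be put in order were mt-Cytb and mt-Atp6, with mt-Cytb higher in 7 of 12, and mt-Co2 and mt-Nd1, with mt-Co2 higher in 6 of 12. The order holds for the rows as deposited. With Atp6-ps added to mt-Atp6 the sum was above mt-Cytb in FPKM in 12 of 12 libraries, at up to 2.42 times its level, and with Gm10222 added to mt-Nd4l the sum was above mt-Nd6 in 12 of 12 libraries.

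The 7 mRNAs of complex I together held 32.0% to 35.3% of mitochondrial mRNA reads with vehicle and 31.7% to 35.5% with GA. The 3 mRNAs of complex IV held 47.2% to 49.1% and 46.7% to 50.2%, the 2 of complex V 6.29% to 7.55% and 6.04% to 7.32%. For mt-Cytb of complex III the means were 11.5% ± 0.455 and 11.3% ± 0.366 (SD, n = 6 each). For each complex the ranges of the groups overlapped. These parts leave out Atp6-ps, described further on, which held 63326 to 180793 reads per library beside 50738 to 157054 for mt-Atp6. With it counted, the part of complex V would be larger and those of the other complexes smaller, by an amount that was not computed.

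**Figure D2:**
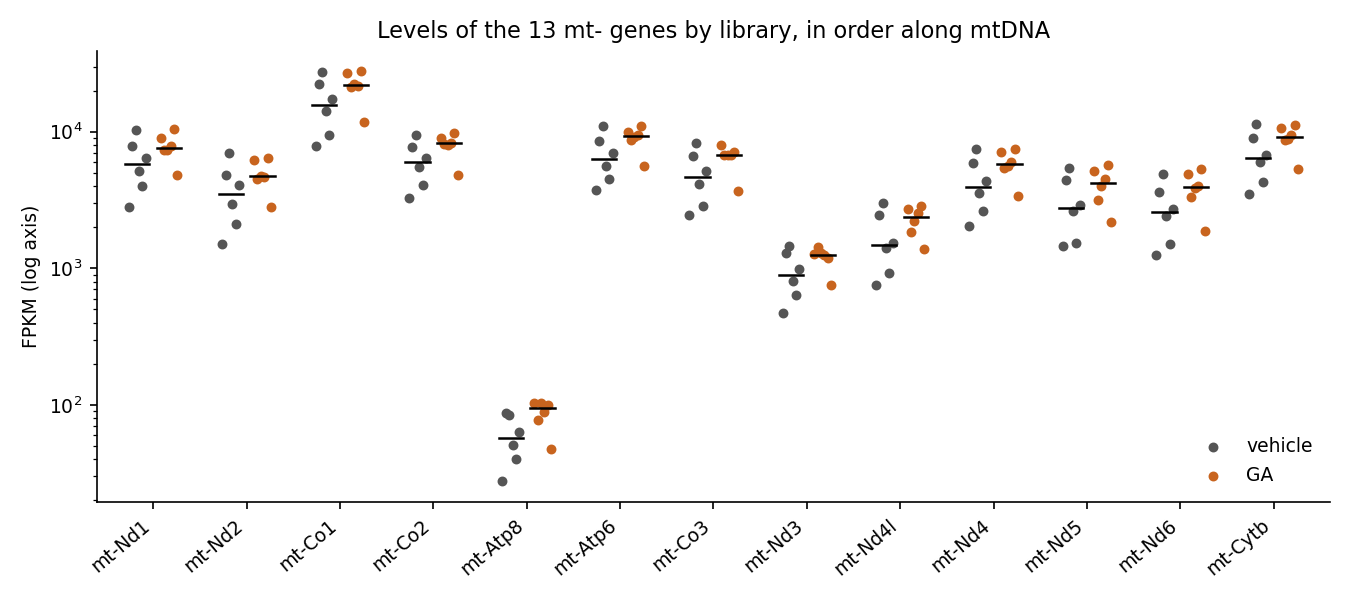
FPKM of each of the 13 mt- genes in the 6 vehicle and 6 GA libraries, on a log axis, in order along mitochondrial DNA, with the group median as a black line. Levels run from 27.7 FPKM for mt-Atp8 in vehicle library 1 to 27723 FPKM for mt-Co1 in GA library 5, and the GA median is above the vehicle median for 13 of 13 genes.

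For each of the 13 genes the mean level was higher in GA libraries than in vehicle libraries, but none passed the test and the groups overlapped. Levels in FPKM were compared on the scale of log2(FPKM + 0.1) after scaling between libraries, with limma over the 16852 genes whose mean reached 0.1 FPKM. Calls needed a p under 0.1 after Benjamini-Hochberg adjustment together with a log2 difference of 0.58 or more in size. Of the 13 genes 0 were called, beside 0 of 16852 genes in all (0%), and 0 of 13 had an unadjusted p below 0.05, beside 367 of all genes (2.18%). In that wider set 159 genes (0.944%) were higher with GA and 208 (1.23%) lower. At an unadjusted p below 0.1 with the same fold limit, 1 of 13 (mt-Atp8) passed, beside 335 of all genes (1.99%). With limma-voom on the recovered reads, 0 of 13 were called and 0 of 13 had an unadjusted p below 0.05.

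Log2 fold changes of the 13 genes ran from 0.41 to 0.60 with a median of 0.50 (1.41-fold), while the median over all genes was -0.012 and 47.6% of all genes were higher with GA. Skeletal muscle markers had a median log2 fold change of 0.47 (9 of 11 higher with GA), markers of oral epithelium -0.24 (0 of 10 higher) and neutrophil markers -0.88 (0 of 7 higher), with 0 of each list at an unadjusted p below 0.05 in limma. Their part in the values of the mitochondrial genes was not tested beyond the fits with a muscle or a neutrophil term. Standard errors ran from 0.29 to 0.53, unadjusted p from 0.0589 to 0.368, and each adjusted p was 0.9995. The 13 values are not independent, because levels of these genes moved together across libraries, with Pearson r between 0.906 and 0.998 for the 78 pairs (median 0.982, n = 12, a description of genes that share a total and a tissue).

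Among the complex I mRNAs, mt-Nd6 had the largest difference. Its level was 1262 to 4915 FPKM with vehicle (median 2571) and 1869.7 to 5353 FPKM with GA (median 3923), a log2 fold change of 0.57 (standard error 0.40). The level of mt-Nd1 was 2833 to 10302 FPKM with vehicle (median 5815) and 4828 to 10456 FPKM with GA (median 7612), a log2 fold change of 0.42 (standard error 0.40). In FPKM, vehicle library 1 was lowest and GA library 5 highest for both genes, and only GA library 5 was above every vehicle library. On the scaled values tested, 0 of 6 GA libraries were above every vehicle library for mt-Nd1 and 1 of 6 for mt-Nd6. The other complex I genes had log2 fold changes of 0.41 (mt-Nd3), 0.51 (mt-Nd2, mt-Nd4 and mt-Nd5) and 0.54 (mt-Nd4l).

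The level of mt-Cytb, the mitochondrial subunit of complex III, was 3506 to 11435 FPKM with vehicle (median 6405) and 5336 to 11154 FPKM with GA (median 9187). Its log2 fold change was 0.46 (standard error 0.41), and no GA library was above every vehicle library.

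Of the complex IV mRNAs, mt-Co1 was at 7847 to 27200.0 FPKM with vehicle (median 15650.3) and 11697 to 27723 FPKM with GA (median 22053). Its log2 fold change was 0.50 (standard error 0.53, the largest of the 13). For mt-Co2 and mt-Co3, which complete the core of the complex, log2 fold changes were 0.44 (standard error 0.38) and 0.48 (standard error 0.39). In each of the 3 genes GA library 6 was lowest of its group and vehicle libraries 1 and 5 were below it.

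Within complex V, mt-Atp6 codes for the membrane subunit of the proton channel and mt-Atp8 for a small accessory subunit. The level of mt-Atp8 was 27.7 to 86.6 FPKM with vehicle (median 57.2) and 47.2 to 104 FPKM with GA (median 95.0). In FPKM it was above every vehicle library in 4 of 6 GA libraries, and on the scaled values tested in 3 of 6. In FPKM GA library 6 was below 4 vehicle libraries. Its log2 fold change of 0.60 (standard error 0.29) was the only one of the 13 past the fold limit, with an unadjusted p of 0.0589 and an adjusted p of 0.9995 in limma, and 446 of all genes had a smaller unadjusted p. It ran from 0.44 (without vehicle library 1) to 0.78 (without GA library 6) over the alternative fits, and among those below the limit were limma-voom on recovered reads (0.57), the same FPKM sum per library (0.57) and the fits with a muscle term (0.50) or a neutrophil term (0.51). The value rests on 104 to 440 reads per library, where every other member had at least 3144. For mt-Atp6 the log2 fold change was 0.46 (standard error 0.39).

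The fold changes depended on the libraries and terms included, and for 13 of 13 genes they were above 0 in each of the 30 alternative fits. Their median was 0.34 without vehicle library 1 and 0.70 without vehicle library 3. With the mean log2 level of muscle markers as a term the median was 0.37 (range 0.30 to 0.50), and with the neutrophil markers as a term it was 0.36. With a term for Y-linked reads the median was 0.70, and within the 7 libraries without Y-linked reads (2 vehicle, 5 GA) it was also 0.70. The count of members at an unadjusted p below 0.05 went from 0 to 1 with the muscle term, without vehicle library 2 or without GA library 6 (each time mt-Atp8), fits in which 3.60%, 2.48% and 5.13% of all genes were below that p. It went to 3 without vehicle library 3 (mt-Atp8, mt-Nd3 and mt-Nd4l). Without vehicle library 3, 4.78% of all genes were below that p, and the lowest adjusted p among members was 0.831.

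**Figure D3:**
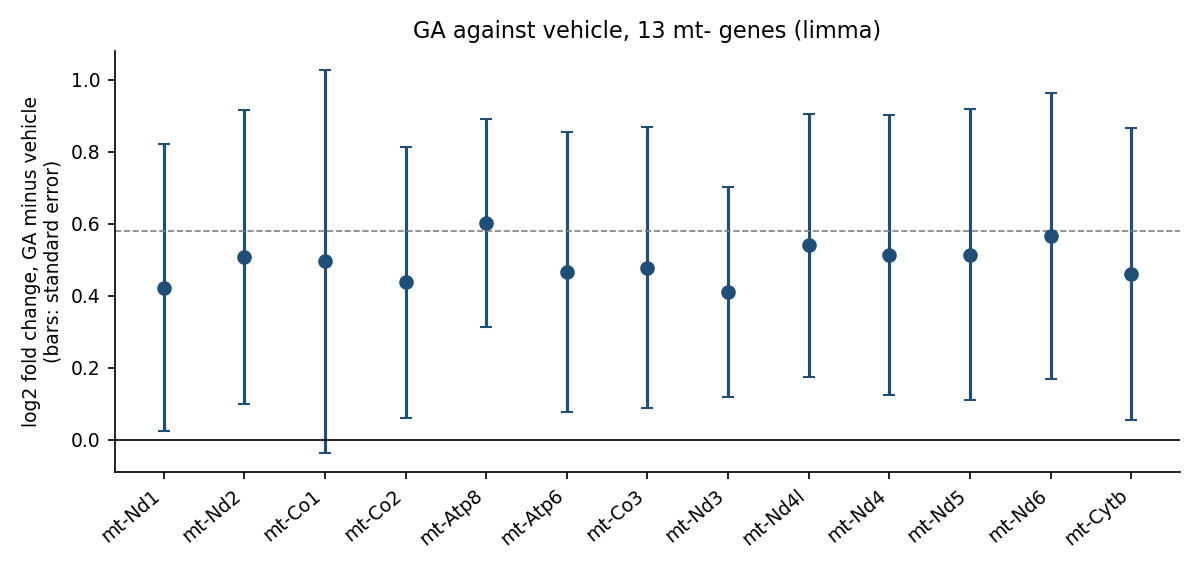
Log2 fold change (GA minus vehicle) of each mt- gene in limma, with bars for 1 standard error and a dashed line at the fold limit of 0.58. The 13 values lie between 0.41 and 0.60, and only mt-Atp8 is above the line.

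Ratios between mitochondrial mRNAs do not depend on how libraries are scaled, but in FPKM they do depend on the length offset given with the processing. For mt-Atp8 to mt-Atp6 the log2 difference between groups was 0.14 in FPKM and 0.12 in reads per base of gene. The 9 pairs compared were chosen as neighbours, partners on a shared RNA, far ends of the heavy-strand transcript or opposite strands. None of the 9 ratios passed a test of the difference between groups in exact two-sided permutation tests over all assignments of 6 libraries to each group (lowest p = 0.160, lowest adjusted p = 0.643, n = 6 per group, smallest possible p 0.00216). Differences in mean log2 ratio ran from -0.073 for mt-Nd1 to mt-Co1 up to 0.14 for mt-Atp8 to mt-Atp6.

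The ratios were much less variable than the levels. Between the lowest and highest library, mt-Nd4 to mt-Co1 varied 1.16-fold, mt-Cytb to mt-Nd1 1.17-fold, mt-Co3 to mt-Co1 1.22-fold and mt-Nd4l to mt-Nd4 1.25-fold. The widest was mt-Atp8 to mt-Atp6 at 1.51-fold. In log2 units, the SD of a gene's level over the 12 libraries was 0.51 to 0.69, and the SD of its part of all mitochondrial mRNA reads was 0.039 (mt-Co1 and mt-Nd4) to 0.18 (mt-Nd3).

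Partners encoded on a shared mRNA had unequal FPKM, so these values describe counted reads and not separate transcripts. The FPKM ratio of mt-Atp8 to mt-Atp6, which a cell carries on a single bicistronic mRNA, was at least 0.00737 with vehicle (median 0.00902) and 0.00837 to 0.0111 with GA (median 0.00929). The difference between groups was 0.14 in log2 units (exact permutation p = 0.160, adjusted p = 0.643, n = 6 per group). In the other bicistronic pair, the ratio of mt-Nd4l to mt-Nd4 was 0.351 to 0.416 with vehicle (median 0.383) and 0.339 to 0.423 with GA (median 0.391). The difference was 0.027 in log2 units (exact permutation p = 0.669, adjusted p = 0.755, n = 6 per group). How reads across 2 genes were assigned is not stated in the sources used here. Both ratios also depend on nuclear copies, described further on, whose reads cannot be told apart from those of mt-Atp6 and mt-Nd4l. With the rows Atp6-ps and Gm10222 added to these genes, the median of mt-Atp8 to mt-Atp6 was 0.00413 with vehicle and 0.00433 with GA (log2 difference 0.16, exact permutation p = 0.156, n = 6 per group). The median of mt-Nd4l to mt-Nd4 then was 0.758 with vehicle and 0.759 with GA (log2 difference 0.012, exact permutation p = 0.818, n = 6 per group). A like limit holds for the ratios to mt-Co1. Nuclear transcripts held 51.1% of the 50-base stretches of mt-Co1, 62.2% of those of mt-Nd4, 99.9% for mt-Co3 and 100% for mt-Co2. Their copies have no named row and were not added.

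The ratio of mt-Nd6 to mt-Nd5 compares genes on opposite strands. It was 0.821 to 0.989 with vehicle (median 0.914) and 0.853 to 1.05 with GA (median 0.942), and mt-Nd6 was above mt-Nd5 in GA library 2. Whether counting used strand is not given in the sources used here, and without it reads from mt-Nd6 and from heavy-strand RNA lying across the same bases cannot be told apart. The difference between groups was 0.051 in log2 units (exact permutation p = 0.385, adjusted p = 0.643, n = 6 per group), and among libraries free of Y-linked reads the value was -0.037.

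Along the heavy-strand transcript, mt-Nd5 to mt-Nd1 was 0.380 to 0.557 with vehicle (median 0.509) and 0.435 to 0.572 with GA (median 0.546). Vehicle library 5 was lowest and GA library 1 highest. The ratio of mt-Cytb to mt-Nd1, the farthest pair on this strand, was 1.05 to 1.24 with vehicle (median 1.13) and 1.07 to 1.21 with GA (median 1.18). The log2 differences of 0.092 and 0.037 did not pass the test (exact permutation p = 0.424 and 0.429, adjusted p = 0.643 for both, n = 6 per group).

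**Figure D4:**
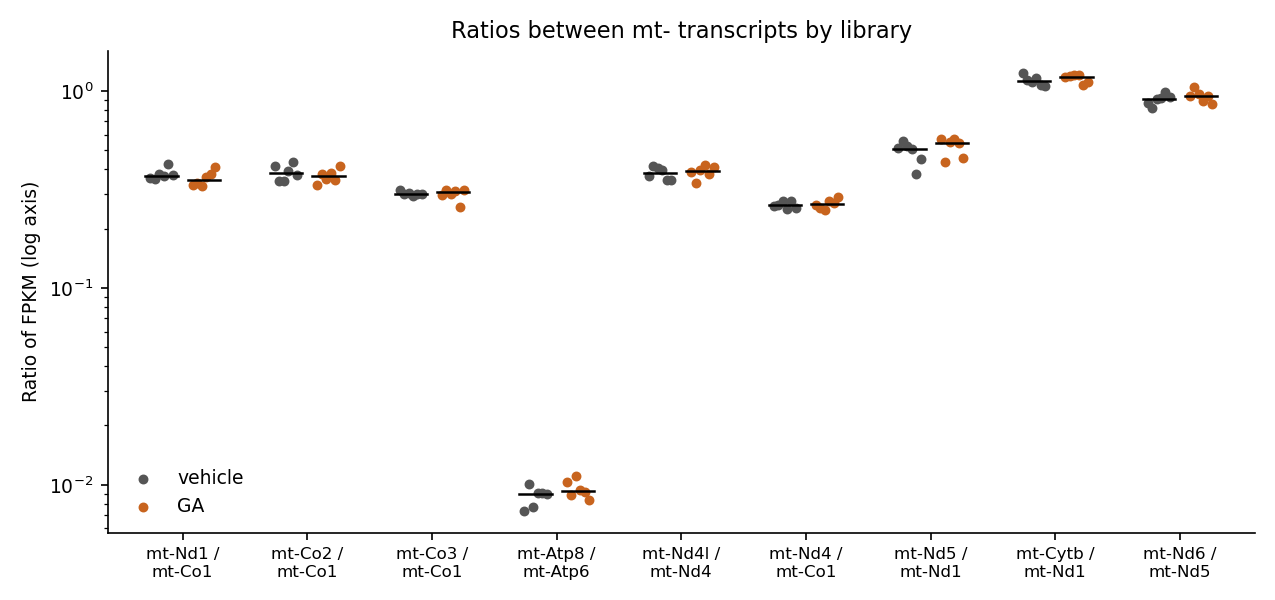
Ratio of FPKM for 9 pairs of mt- mRNAs in each vehicle and GA library, on a log axis, with the group median as a black line. Ratios of vehicle and GA libraries overlap in 9 of 9 pairs, and mt-Atp8 to mt-Atp6 lies near 0.01 while the other 8 lie between 0.249 and 1.24.

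The level of mt-Cytb, taken as 1 gene for the set, was related to 6 nuclear genes chosen as markers, 1 each for muscle, basal epithelium, fibroblasts, neutrophils, nuclear respiratory subunits and mitochondrial DNA packaging. Pearson r and Spearman rho were computed on log2 levels over 12 libraries, with 100000 random pairings for each p and adjustment over the 6 relations.

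Ckm, the creatine kinase of skeletal muscle, ran from 71.8 to 742 FPKM with vehicle and from 122 to 600.3 FPKM with GA. It correlated with mt-Cytb at r = 0.92 (permutation p = 8e-05, adjusted p = 0.00024) and rho = 0.87 (permutation p = 0.00034, adjusted p = 0.00102). Without the 2 libraries farthest from the median of Ckm (vehicle 1 and GA 6) r was 0.88. Within the vehicle group r was 0.94 (permutation p = 0.00566, adjusted p = 0.0170, n = 6) and within the GA group 0.88 (permutation p = 0.0570, adjusted p = 0.114, n = 6).

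Atp5f1b, the nuclear-encoded catalytic beta subunit of complex V, ran from 236 to 607 FPKM with vehicle and from 292 to 559 FPKM with GA. It had the strongest relation with mt-Cytb of the 6, with r = 0.96 (permutation p = 1e-05, the smallest that these resamples give, adjusted p = 6e-05) and rho = 0.92 (permutation p = 0.00011, adjusted p = 0.00066). Without the 2 farthest libraries (vehicle 1 and vehicle 3) r was 0.94, and within the groups it was 0.97 with vehicle (permutation p = 0.00123, adjusted p = 0.00738, n = 6) and 0.95 with GA (permutation p = 0.0115, adjusted p = 0.0689, n = 6).

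Krt5, a keratin of basal epithelial cells, was related in the opposite direction, with r = -0.70 (permutation p = 0.0123, adjusted p = 0.0247) and rho = -0.78 (permutation p = 0.00472, adjusted p = 0.00944). This r lies between the 2 percentiles given above for all rows. The r of Ckm (0.92) lies close to the upper percentile and that of Atp5f1b (0.96) above it. Without the 2 farthest libraries (vehicle 6 and GA 6) r of Krt5 was -0.79. Within the groups r was -0.54 with vehicle (permutation p = 0.274, adjusted p = 0.411, n = 6) and -0.94 with GA (permutation p = 0.0353, adjusted p = 0.106, n = 6), where GA library 6 had 3187 FPKM of Krt5 and the next highest 1441 FPKM. The relation with Krt5 lost its adjusted p below 0.05 without scaling (r = -0.63, permutation adjusted p = 0.0573) and with libraries scaled to the same FPKM sum outside mitochondrial DNA (r = -0.53), by the same permutation.

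Relations with the other 3 genes did not pass. Tfam, which packages mitochondrial DNA and activates its transcription, had r = 0.61 (permutation p = 0.0391, adjusted p = 0.0587), and r was 0.38 without its 2 farthest libraries. S100a8, a neutrophil gene, had r = -0.47 (permutation p = 0.120, adjusted p = 0.144) and Col1a1, a collagen of fibroblasts, r = -0.31 (permutation p = 0.330, adjusted p = 0.330).

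Of the named nuclear rows averaging 1 FPKM or more (12153 rows), 10 were listed as most like mt-Cytb by Pearson r over the 12 libraries, which share their totals and their tissue mix. The highest was Atp6-ps (r = 0.994), followed by Gm10222 (0.988), both described with the nuclear copies. Next were Coq10a (0.982), which acts on coenzyme Q, Mdh1 (0.982) and Mdh2 (0.978), the cytosolic and mitochondrial malate dehydrogenases, and Slc2a4 (0.979), the insulin-responsive glucose transporter of muscle and fat. The list also held Lrrc39 (0.981), Wnk2 (0.979), the histone gene H4c8 (0.977) and Atp5mc3 (0.977), a c-ring subunit of complex V. The 5 lowest were Tpd52 (r = -0.963), Copb1 (-0.948), Rnf19b (-0.926), Lpin2 (-0.925) and Rhog (-0.924). Over all 12153 rows the median r was -0.17, and 428 rows (3.52%) were above 0.9.

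Levels of nuclear subunits that join the mitochondrial ones varied with them across libraries. Of 22 listed partner subunits of complexes I, III, IV and V, 22 passed the filter on low values and 22 were higher with GA, beside 47.6% of all genes. Of the 22, 0 were called, beside 0 of 16852 genes in all, and 0 had an unadjusted p below 0.05 in limma, beside 2.18% of all genes. Their median log2 fold change was 0.24, against 0.50 for the mitochondrial members and -0.012 for all genes. Pearson r with mt-Cytb ran from 0.867 (Cox6b1) to 0.971 (Ndufs1), so the 22 values are not independent. The log2 fold change was 0.18 (standard error 0.22) for Cox4i1 of complex IV and 0.27 (standard error 0.26) for Atp5f1a of complex V.

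Of 60 listed nuclear genes for the upkeep and expression of mitochondrial DNA, 60 passed the filter and 0 were called in limma, beside 0 of 16852 genes in all. By role, higher mean levels with GA were seen for 6 of 9 transcription genes, 9 of 11 replication and maintenance genes, 7 of 11 RNA cutting and modification genes, 10 of 14 RNA stability genes and 14 of 15 ribosome assembly and translation genes. In all 46 were higher and 14 lower, with a median log2 fold change of 0.11, where 47.6% of all genes were higher. The 60 values are not independent either, as r with mt-Cytb had a median of 0.455. Of the 60, 4 were higher at an unadjusted p below 0.05 (of all genes 0.944% were) while 0 were lower (of all genes 1.23% were). That count of 4 ranged from 0 to 10 over the alternative fits. It was 0 without any one of vehicle libraries 1 and 5 and GA libraries 2 and 3. In those fits 1.51% to 2.52% of all genes were below that p in either direction. Without vehicle library 3 it was 10, beside 4.78% of all genes.

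The 3 with the smallest p on the higher side were Mrm1, Twnk and Mrm3. Mrm1, an enzyme that methylates mitochondrial 16S rRNA, was at 2.47 to 5.77 FPKM with vehicle (median 3.42) and 4.28 to 5.99 FPKM with GA (median 4.91), with a log2 fold change of 0.45 (standard error 0.19). Twnk, the helicase of mitochondrial DNA replication, was at 3.10 to 5.58 FPKM with vehicle (median 4.97) and 4.73 to 6.99 FPKM with GA (median 6.12), with a log2 fold change of 0.34 (standard error 0.15). For Mrm3, another methylase of that rRNA, it was 0.29 (standard error 0.13). Their ranges overlapped between the groups, unadjusted p were 0.0326, 0.0394 and 0.0440, and adjusted p was 0.9995 for the 3 genes in limma.

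On the lower side the smallest p belonged to Tk2, the mitochondrial thymidine kinase (log2 fold change -0.19, standard error 0.13), Mtif3, a translation initiation factor (-0.13, standard error 0.11), and Mtpap, the poly(A) polymerase (-0.086, standard error 0.12). For the mitochondrial RNA polymerase Polrmt the log2 fold change was 0.11 (standard error 0.11), and for Tfam it was 0.028 (standard error 0.13). With mt-Cytb, genes of this list correlated between -0.773 (Rexo2, an exonuclease of short RNAs) and 0.973 (Gfm1, a translation elongation factor), with a median of 0.455, lower than the median of 0.952 of the partner subunits.

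Several members have copies in the nuclear genome. Stretches of 50 bases from each gene were searched in all nuclear transcripts of the annotation, on both strands. For mt-Co2 100% of them occurred there, for mt-Co3 99.9%, for mt-Atp6 99.5%, for mt-Nd4l 98.8%, for mt-Nd3 98.0%, for mt-Nd4 62.2% and for mt-Co1 51.1%. The shares were 8.19% for mt-Nd2 and 7.61% for mt-Nd5, and 0% for mt-Nd1, mt-Atp8, mt-Nd6 and mt-Cytb. Most of the matches lay in a row of unprocessed pseudogenes on chromosome 1 (24611535 to 24616197 of GRCm38, minus strand) that holds Gm28439, Gm10222, Gm28438, Gm28437, Gm10925, Gm28661 and Gm29216. The annotated transcripts of Gm28439, Gm10222, Gm28437, Gm10925 and Gm28661 are each an unbroken stretch of mt-Nd4, mt-Nd4l, mt-Co3, mt-Atp6 and mt-Co2. Nuclear sequence outside annotated transcripts was not searched, and the read length is not given in the sources used here.

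Of these pseudogenes only Gm10222 is a named row, and its level was close to that of mt-Nd4l. It was at 730.3 to 2901 FPKM with vehicle (median 1423) and 1338 to 2755 FPKM with GA (median 2077), from 4084 to 17217 reads. The ratio of Gm10222 to mt-Nd4l was 0.797 in GA library 4 and at least 0.919 in the other 11 libraries, with a median of 0.966. The difference in this ratio between groups did not pass the test (log2 difference -0.031, exact permutation p = 0.764, n = 6 per group).

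A second row, named Atp6-ps, followed mt-Atp6 in the same way. Its symbol is not in the annotation used here. Of 2951 gene lengths from 50 to 3000 bases, 678 was the only one at which its values were whole reads (within 0.02) in 12 of 12 libraries, and the next best length gave 4. That is the length of Gm10925, the copy of mt-Atp6, and also of 43 other annotated genes, so the match is by length and level and not by name. Atp6-ps was at 4722 to 12668 FPKM with vehicle (median 7292) and 6625 to 12522 FPKM with GA (median 10532), and it was above mt-Atp6 in 12 of 12 libraries, at 1.10 to 1.25 times its level (median 1.16).

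According to the methods, reads with a single place in the genome were counted. A read that lies wholly within an identical stretch has no such place. Gm10222 held 4084 to 17217 reads on a transcript that is part of mt-Nd4l, and mt-Co2 was at 3279 to 9772 FPKM. How reads within such stretches were counted was not tested, because the read length is not given. Reads of both rows and of their mitochondrial counterparts therefore cannot be told apart here. With Gm10222 and Atp6-ps counted as mitochondrial, the share of the FPKM sum was 19.1% ± 7.52 (SD, n = 6) with vehicle and 24.7% ± 5.14 (SD, n = 6) with GA. The log2 fold changes of Gm10222 (0.51, standard error 0.35) and Atp6-ps (0.42, standard error 0.39) lay within the range of the 13 members. Of the members without a match in nuclear transcripts, mt-Nd1, mt-Cytb, mt-Nd6 and mt-Atp8 had log2 fold changes of 0.42, 0.46, 0.57 and 0.60.

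**Figure D5:**
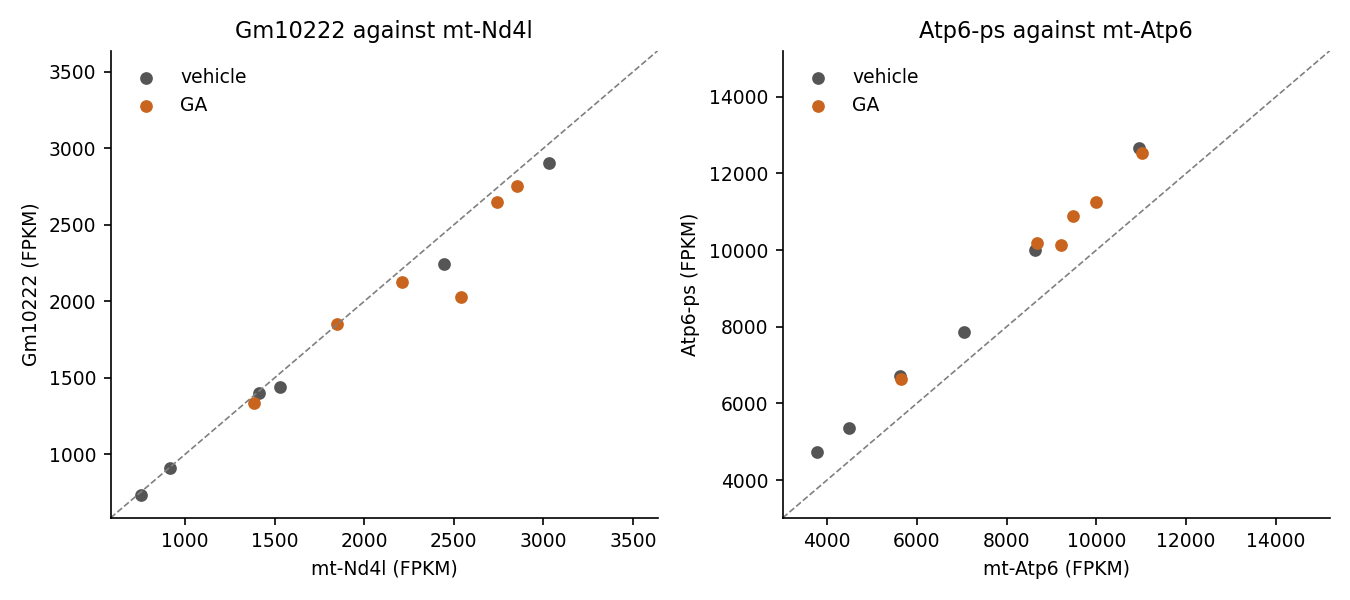
FPKM of the row Gm10222 against mt-Nd4l (left) and of the row Atp6-ps against mt-Atp6 (right) in the 12 libraries, with a dashed line where both are equal. Gm10222 lies at 0.797 to 1.00 times mt-Nd4l and Atp6-ps at 1.10 to 1.25 times mt-Atp6.

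The make-up of the mitochondrial mRNA pool varied with its size for some genes. In vehicle library 1, where the pool was the smallest share of reads, mt-Co2 held 6.59% of mitochondrial mRNA reads and mt-Atp6 7.54%, while in GA library 5, where it was the largest, they held 5.66% and 6.34%. The part held by mt-Nd6 went the other way, from 1.91% to 2.33%, with Pearson r of 0.71 with the size of the pool among vehicle libraries and 0.92 among GA libraries. That of mt-Nd2 was 4.68% and 5.70%, but r was 0.84 with vehicle and 0.12 with GA. For mt-Cytb, the gene taken for the set in the relations, the part was 11.9% and 10.9%, and r was -0.80 in each group. For mt-Co2, the 6 vehicle and 6 GA libraries each showed a lower part with a larger pool (Pearson r = -0.97 and -0.79, given as a description because the pool is part of both measures). No test was run on this pattern, and the groups differed little in these parts, mt-Co2 being at 6.13% ± 0.503 (SD, n = 6) with vehicle and 5.92% ± 0.325 (SD, n = 6) with GA.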

How the data were processed

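Bulk RNA-seq of 12 mouse tongue samples (6 vehicle, 6 GA) was analysed from the deposited tables. HISAT2 and mm10 are named in the submitters' processing notes, and featureCounts on uniquely mapped reads in the methods. The authors deposited FPKM, with 55463 rows for each sample.

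Low FPKM values were whole multiples of 1 read once the gene length was taken as exon length (GENCODE M21) minus an offset of 17.0 to 24.2 bases that was longer in larger libraries. This form held for 97.7% to 98.3% of low values (54.6% to 64.8% with the plain exon length) and for 156 of 156 member values, so values of short genes are slightly inflated. The median offset was 20.1 bases with vehicle and 22.7 bases with GA. The inflation was thus larger on median in GA libraries, and it is largest for mt-Atp8, the shortest member.

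Libraries were scaled by trimmed means of log ratios without weights (30% and 5% trimmed) and tested as log2(FPKM + 0.1), a scale that understates changes of low genes, with limma 3.58.1 (R 4.3.3, trend). The files hold FPKM, so the log scale was the main choice, and limma-voom on the recovered reads was an alternative. Ratios and relations were tested by permutation (scipy 1.17.1). The fit was tested on simulated data. Alternatives covered scaling, pseudocount, filter, terms and libraries. Replicate numbers did not pair samples.

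Members and gene lists were chosen with earlier results of these data known. All members are named, as are the 3 nuclear expression genes of smallest p per direction and the 10 and 5 genes most and least like mt-Cytb. Medians for rRNAs and tRNAs and 2 of 11 planned ratios could not be computed because these rows are unnamed.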

Additional observations from a re-analysis of the deposited data

Results flagged for a closer look

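Values of single libraries that stood apart from the other 5 of their group by Dixon's 95% criterion on the gap to the nearest library were looked for in 68 sets of 6 values, and 7 were found. Chance gives about 1 in 20 for independent sets. These sets share libraries and genes that move together, so no excess over chance can be read from the count. In GA library 6 the levels of mt-Co2 (4843 FPKM, next lowest 7999.9 FPKM), mt-Co3 (3659 FPKM, next 6703 FPKM) and mt-Nd3 (759 FPKM, next 1186 FPKM) were below the other GA libraries, and Krt5 was above them (3187 FPKM, next 1441 FPKM). Muscle markers summed to 2473 FPKM in this library, the lowest of its group. In vehicle library 5 the ratio of mt-Nd1 to mt-Co1 was 0.427, with the next highest at 0.379. In GA library 5 the ratio of mt-Co3 to mt-Co1 was 0.257, with the next lowest at 0.296. In GA library 4 the ratio of Gm10222 to mt-Nd4l was 0.797, with the next lowest of the group at 0.964.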

How the results depend on the processing

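The count of mitochondrial genes called was 0 in the fit reported and in 30 alternative fits, and 1 with an unadjusted p below 0.1 and the fold limit (1.99% of all genes). The count at an unadjusted p below 0.05 was 0 in the fit reported and 1 with libraries scaled to the same FPKM sum, with array weights or with the muscle term. In these 3 fits 1.59%, 6.01% and 3.60% of all genes were below that p. Leaving out 1 library at a time it was 0 to 3, the median log2 fold change of the 13 genes 0.34 to 0.70, the difference in the share of the FPKM sum 3.33 to 6.87 percentage points, and that in the share of reads 1.76 to 3.58. Without the libraries with high Lipf the share differed by 6.17 points, and with all rows in the denominator by 3.64. Counting the copies as mitochondrial gave 5.63 points, an alternative chosen after seeing the data, as were all counted reads as the denominator, reads per base of gene for the ratios and ratios with the copies added.

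Same-numbered libraries did not vary together (correlations of their deviations -0.37 to 0.080), so the numbers share only a label. With a replicate block the median log2 fold change was 0.50, 0 genes were called, all genes at an unadjusted p below 0.05 went from 367 to 229, and 0 ratios passed.

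Ratio differences changed sign for mt-Nd6 to mt-Nd5 within libraries without Y-linked reads (-0.037), for mt-Co3 to mt-Co1 without GA library 5 (0.025, range over single libraries left out -0.034 to 0.025) and for mt-Nd4 to mt-Co1 without GA library 6 (-0.0053, range -0.0053 to 0.037). The relation of mt-Cytb with Col1a1 had r = 0.0070 within the GA group, where 0 of 6 relations passed an adjusted p below 0.05 against 3 of 6 over all libraries. The cause was not tested. All genes at an unadjusted p below 0.05 numbered 1012 with array weights, 606 with the muscle term, 805 without vehicle library 3, 864 without GA library 6, 558 with no filter and 555 with unnamed rows kept.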
